A study of Bos taurus with 11 samples.

Results

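The miRNAs examined were those of the *miR-10* and *miR-196* families that lie in the Hox gene clusters. They were *bta-miR-10a*, *bta-miR-10b*, *bta-miR-196a* and *bta-miR-196b*, each matched by its name to 1 row of the deposited table. These were 4 of the 796 miRNAs listed, and all 4 passed the filter on low counts that left 550 miRNAs for testing. Small RNA was sequenced from mammary gland biopsies of lactating cows, 5 of the Holstein breed and 6 of the Montbéliarde breed, with 1 library per cow. Holstein is a specialised dairy breed, and Montbéliarde is a dairy breed of eastern France with a lower milk yield. No treatment distinguished the groups, and all cows were in mid-lactation and fed alike. The labels carry no age. Libraries are named here by the tag in their label, CNLX1 to CNLX9 for Holstein and CNLX13 to CNLX23 for Montbéliarde, so that tag order and breed cannot be told apart.

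A miRNA is a short RNA that pairs with messenger RNAs, mainly through its 5′ seed, and lowers their translation or stability. Hox genes are transcription factors that set position along the body axis, and the *miR-10* and *miR-196* genes sit between them. Both miRNA families are known to target Hox messenger RNAs, *miR-196* being best known for *HOXB8*. *miR-10b* is also known from breast cancer cells, where it was described as an inducer of migration. The 2 mature miRNAs of each family have the same seed and almost the same sequence.

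The gene neighbourhood was read from the RefSeq annotation of the cattle assembly ARS-UCD2.0, for names and order alone. *MIR10A* lay within the span of *HOXB3*, with *HOXB5* and *HOXB4* as neighbouring Hox genes. *MIR10B* lay within the span of *HOXD4*, with *HOXD3* and *HOXD8* as neighbours. *miR-196a* has 2 gene copies, *MIR196A-1* within the span of *HOXB9* and *MIR196A-2* between *HOXC9* and *HOXC10*. Their mature products share 1 row of the table, so reads from the HOXB and the HOXC cluster could not be told apart. *MIR196B* lay between *HOXA10* and *HOXA9*. The rows of *miR-10a* and *miR-196a* therefore both include a gene of the HOXB cluster.

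The libraries held 7431936 to 16808976 counted reads in Holstein (median 10786816) and 6087865 to 11395785 in Montbéliarde (median 9107961). Among marker lists of other cell types, CNLX15 and CNLX21, both Montbéliarde, stood apart. Their epithelial miRNAs (the *miR-200* family and *miR-205*) summed to 181193 and 180093 normalized reads, against 228709 to 469496 in the other 9 libraries. The mean log2 level of this list was 10.2 and 10.7 in them and 11.2 to 11.5 in the other 9. Breed differences of single miRNAs and their correlations with marker lists are therefore also given without these libraries, while the other results include them. A biopsy is a bulk sample, in which fewer cells of a type and less RNA per cell cannot be told apart. That each library is a separate cow rests on the labels, and the p-values measure the spread among these animals.

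*miR-10b* was among the most abundant miRNAs of the mammary gland. It made up 8.18% ± 2.13 (SD, n = 11) of all counted reads and ranked 4 of 796 by mean share, between rank 2 and rank 6 in single libraries. *miR-10a*, at 0.381% ± 0.0947 (SD, n = 11), ranked 26. The *miR-196* family was expressed at a far lower level, *miR-196a* ranking 138 with 0.00616% ± 0.00217 and *miR-196b* ranking 152 with 0.00435% of the reads. Summed raw reads of the *miR-10* pair exceeded those of the *miR-196* pair 854 ± 248-fold (SD, n = 11). Mature miRNAs are of nearly the same length, but adapter ligation and PCR act unequally on different sequences, so these are orders of read counts.

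The normalized read count is the raw count divided by the size factor that the authors used to put libraries on one scale. For *miR-10b* it was 675563 in CNLX1, 1130315 in CNLX3, 1202140 in CNLX5, 533311 in CNLX7 and 663383 in CNLX9 of the Holstein cows. In the Montbéliarde cows *miR-10b* ran from 469150 (CNLX19) through a median of 732231 to 1233553 normalized reads (CNLX15). High libraries occurred in both breeds and the ranges overlapped nearly in full. Holstein libraries averaged 840943 ± 303197 (SD, n = 5) and Montbéliarde libraries 792758 ± 261939 (SD, n = 6) normalized reads. As a share of all counted reads, *miR-10b* took 6.02% to 11.9% in Holstein and 5.34% to 10.8% in Montbéliarde.

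*miR-10a* had 37992, 42942, 47563, 30066 and 28036 normalized reads in CNLX1, CNLX3, CNLX5, CNLX7 and CNLX9. In Montbéliarde its normalized reads ran from 21759 (CNLX19) through a median of 35243 to 67480 (CNLX15). The lowest and the highest library were both Montbéliarde and enclosed the whole Holstein range, and they were the same libraries as for *miR-10b* within that breed. The Holstein mean of *miR-10a* was 37320 ± 8304 normalized reads (SD, n = 5), and that of Montbéliarde 38347 ± 15754 (SD, n = 6).

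*miR-196a* had 570, 579, 539, 358 and 1045 normalized reads in the Holstein libraries CNLX1, CNLX3, CNLX5, CNLX7 and CNLX9. Its Montbéliarde values ran from 274 (CNLX23) through a median of 553 to 963 normalized reads (CNLX15). The highest library of all 11 was thus Holstein and the lowest Montbéliarde, with the other values of both breeds intermixed. Holstein averaged 618 ± 255 (SD, n = 5) normalized reads of *miR-196a* and Montbéliarde 606 ± 243 (SD, n = 6).

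*miR-196b* had 250, 762, 478, 380 and 301 normalized reads in the same order of Holstein libraries. In Montbéliarde it ranged from 159 (CNLX17) through a median of 359 to 812 normalized reads (CNLX15), a 5.10-fold range within the breed. CNLX9, where *miR-196a* was highest, was among the lower libraries for *miR-196b*. For *miR-196b* the Holstein average was 434 ± 202 normalized reads (SD, n = 5), beside 431 ± 228 in Montbéliarde (SD, n = 6). Raw counts behind these values were 106 to 792 reads per library for *miR-196b* and 310 to 941 for *miR-196a*, against 473744 to 1992285 for *miR-10b*.

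**Figure D1:**
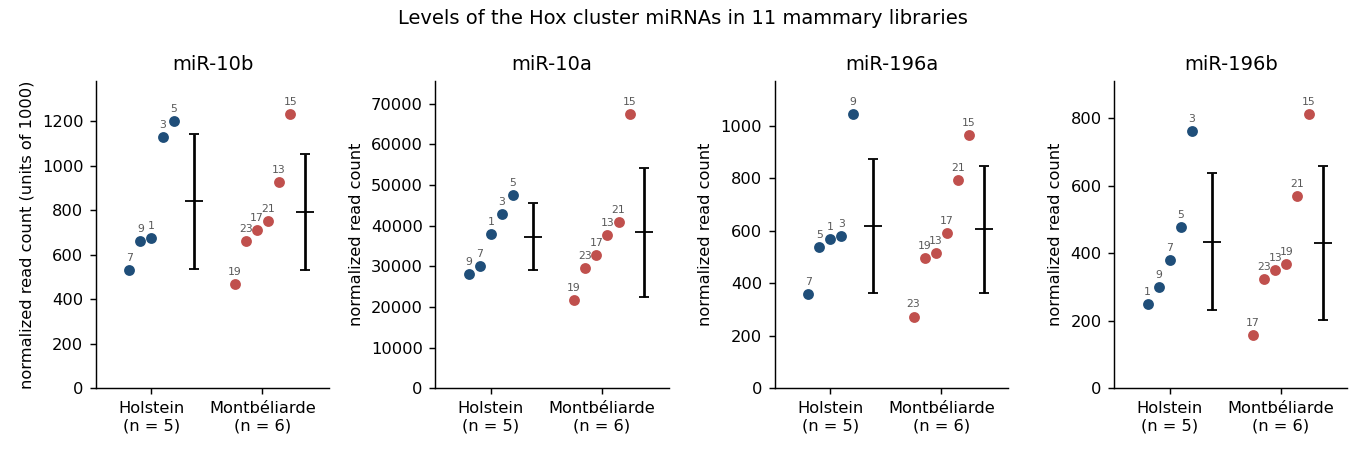
Normalized read counts of the 4 Hox cluster miRNAs on linear axes from 0, with a scale of its own in each panel, 1 point per library labelled with its CNLX number, and the mean with its SD as a black bar. The breeds overlap in every panel, and CNLX15 is the highest Montbéliarde library in each.

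The question the study asked of each miRNA was whether its abundance differed between breeds. For the 4 Hox cluster miRNAs no difference was detected, and the estimates lay close to 0. In the quasi-likelihood fit of edgeR, with p-values adjusted by Benjamini-Hochberg over all 550 tested, 0 of 4 had an adjusted p of at most 0.05, where 0.364% of all tested miRNAs did. At an unadjusted p of at most 0.05 the count was again 0 of 4, against 14.2% of all tested. DESeq2 called 0 of 4, beside 4.24% of all miRNAs with an adjusted p and 15.5% of all tested before adjustment. The limma-voom fit also called 0 of 4, beside 0.364% after and 12.7% before adjustment. None of the 4 had breeds that did not overlap in normalized reads, which 2% of all tested had.

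On the log2 scale, Montbéliarde over Holstein, the difference of *miR-10b* was -0.09 (SE 0.25, adjusted p = 0.890 in edgeR). Its 95% interval reached from a fold of 0.651 to 1.35. *miR-10a* differed by 0.03 (SE 0.24, adjusted p = 0.975 in edgeR), with an interval of 0.716 to 1.45 in fold. Differences of either miRNA beyond these bounds were outside the intervals, and smaller ones could not be resolved with 5 and 6 cows.

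For *miR-196a* the log2 difference was -0.03 (SE 0.30, adjusted p = 0.980 in edgeR), and the interval ran from 0.626 to 1.54 in fold. *miR-196b* differed by -0.0036 on the log2 scale (SE 0.37, adjusted p = 0.997 in edgeR), with the widest interval of the 4, from 0.581 to 1.71 in fold. The intervals of the *miR-196* family were thus wider than those of the *miR-10* family. The absolute log2 difference was smaller than that of *miR-10b* in 15.6% of the 550 tested miRNAs. For *miR-196a* this share was 5.45%, for *miR-10a* 4.91% and for *miR-196b* 0.364%. The median absolute log2 difference over all tested was 0.33.

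Signs of differences this small depended on single libraries. The log2 difference of *miR-10a* was -0.11 without CNLX15 and 0.19 without CNLX19. Without both CNLX15 and CNLX21, chosen after their marker levels were seen, the 4 log2 differences were -0.22 for *miR-10a*, -0.21 for *miR-10b*, -0.33 for *miR-196a* and -0.45 for *miR-196b*. All 4 estimates were then below 0, and the adjusted p-values in edgeR were 0.702 to 0.806.

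**Figure D2:**
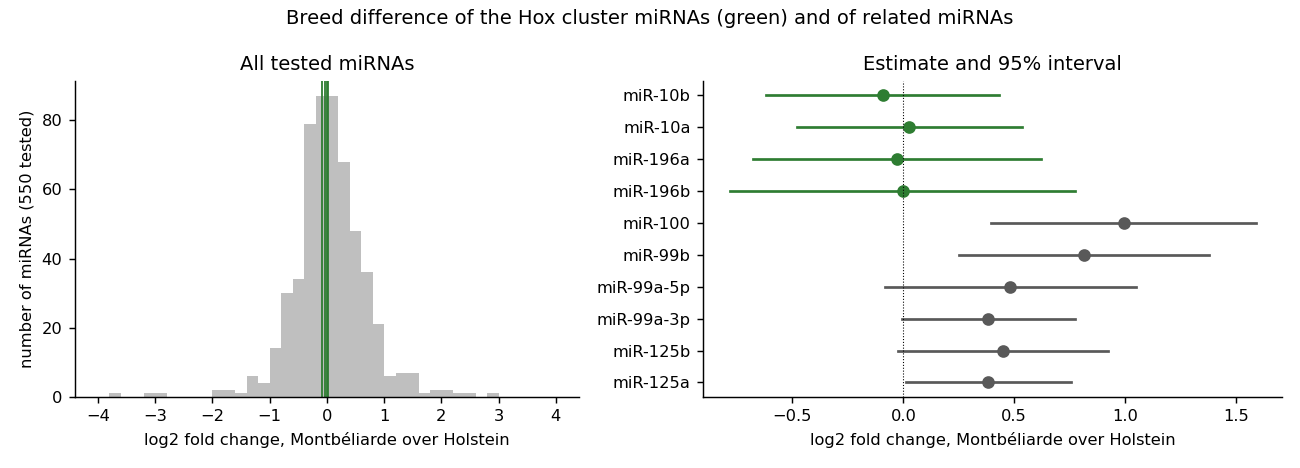
Left, histogram of the log2 fold change (Montbéliarde over Holstein) of the 550 tested miRNAs with the 4 Hox cluster miRNAs as green lines. Right, estimate and 95% interval of the 4 (green) and of 6 related miRNAs (grey). The green estimates run from -0.09 to 0.03, and the related miRNAs from 0.38 to 0.99.

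The composition of each family was compared next, since a ratio within a library does not depend on its scaling. *miR-10b* exceeded *miR-10a* by 17.8, 26.3, 25.3, 17.7 and 23.7-fold in CNLX1, CNLX3, CNLX5, CNLX7 and CNLX9. In Montbéliarde this ratio of raw counts ran from 18.3 (CNLX15) to 24.6 (CNLX13). The *miR-10* ratio was therefore within a narrow band, with means of 22.2 ± 4.12 for Holstein (SD, n = 5) and 21.2 ± 2.43 for Montbéliarde (SD, n = 6). Its log2 difference was -0.05 (95% interval -0.36 to 0.28), with a two-sided exact permutation p of 0.695 and 0.959 after adjustment over the 2 ratios. The smallest p this test allows is 0.00216.

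The ratio of *miR-196b* to *miR-196a* varied far more. It was 0.439, 1.31, 0.886, 1.06 and 0.288 in the same Holstein libraries and ran from 0.270 (CNLX17) to 1.19 (CNLX23) in Montbéliarde. *miR-196b* made up 21.2% of the pair in CNLX17 (95% Wilson interval 17.9 to 25.04) and 56.8% in CNLX3 (54.1 to 59.5). These intervals cover counting error only. In the *miR-10* pair, *miR-10b* made up 94.7% of the reads in CNLX7 and 96.3% in CNLX3, the extremes of that ratio, and with its higher counts those intervals did not overlap either. The *miR-196* ratio averaged 0.798 ± 0.428 over the Holstein libraries (SD, n = 5) and 0.739 ± 0.295 over the Montbéliarde libraries (SD, n = 6). The log2 difference of the *miR-196* ratio was -0.03 (95% interval -1.14 to 1.13, two-sided exact permutation p = 0.959).

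**Figure D3:**
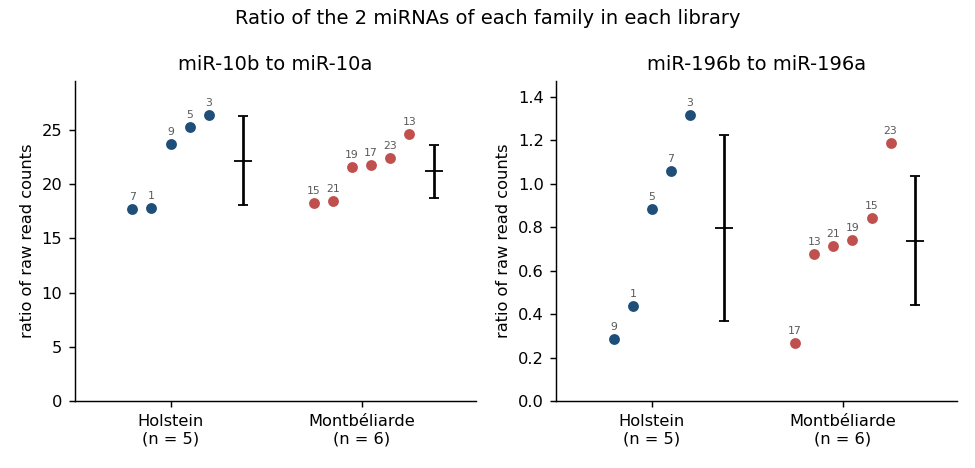
Ratio of raw read counts of miR-10b to miR-10a (left) and of miR-196b to miR-196a (right), with 1 point per library labelled with its CNLX number, and the mean with its SD as a black bar. The miR-10 ratio lies between 17.7 and 26.3, while the miR-196 ratio runs from 0.270 to 1.31.

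Levels held a fixed order except within the *miR-196* family. *miR-10b* was above *miR-10a*, and *miR-10a* above both *miR-196* miRNAs, in 11 of 11 libraries. *miR-196a* was above *miR-196b* in 8 of 11, 3 of 5 Holstein and 5 of 6 Montbéliarde. The log2 ratio of *miR-196b* to *miR-196a* averaged -0.55 ± 0.77 (SD, n = 11), with a two-sided exact permutation p of 0.0322 over all sign changes, a test added after the values were seen. *miR-196a* was thus the higher of the pair on average, but not in every cow.

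The SD of the log2 ratio across the 11 libraries was 0.21 for the *miR-10* pair and 0.77 for the *miR-196* pair. Among all 22366 pairs of the 212 known miRNAs with a mean of at least 100 raw reads, the median SD was 0.55. A smaller SD than that of the *miR-10* pair was found in 1.66% of pairs, and a smaller SD than that of the *miR-196* pair in 77.3%. Because near-identical mature sequences can share reads if mismatches are allowed in mapping, the rows were compared. No other miRNA row had counts identical to those of any of the 4, which cannot show whether reads were shared in part. Among 359 other rows, the SD of the log2 ratio to *miR-10b* was smallest for *miR-10a* (0.213). To *miR-10a* it was smallest for *miR-342* (0.177). How reads matching 2 miRNAs were assigned is not given in the sources used here. Part of the constancy of the *miR-10* ratio through shared reads was not tested.

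Between cows of 1 breed, all 4 miRNAs varied more than the median miRNA. The within-breed SD on the log2 scale was 0.44 for *miR-10a*, 0.46 for *miR-10b*, 0.57 for *miR-196a* and 0.72 for *miR-196b*. The median over the 212 miRNAs was 0.35, and 93.9% of them had a smaller SD than *miR-196b*. For *miR-10a* 69.8% did, a place nearer the middle of the range. Counting error is larger for the *miR-196* values than for the *miR-10* values, since their raw counts were lower. At the lowest count, 106 reads of *miR-196b* in CNLX17, the Wilson interval of its share ran from 0.00121% to 0.00176% of reads. Shares of *miR-196b* ran from 0.00146% to 0.00711% across the Montbéliarde libraries. The part of counting error in the within-breed SD was not tested.

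*miR-10a* and *miR-10b* moved together across cows. On log2 levels (TMM-scaled CPM + 1), Pearson's r was 0.876 (permutation p = 0.00033, adjusted over the 6 pairs 0.00198). Spearman's rho was 0.882 (permutation p = 0.00066, adjusted 0.00396). Without CNLX15 and CNLX19, the libraries farthest from the median of *miR-10a*, r was 0.813. Within Montbéliarde r was 0.953 (n = 6, permutation p = 0.01), and after subtraction of each breed's mean it was 0.878 over all 11. Without CNLX15 and CNLX21 it was 0.894. The relation of the *miR-10* family thus held within breeds and without its extreme libraries.

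No such relation was detected within the *miR-196* family, where r was 0.266 (permutation p = 0.432) and rho 0.155 (permutation p = 0.653). Without CNLX9 and CNLX23, the extremes of *miR-196a*, r was 0.452. Across families, *miR-196b* gave r = 0.623 with *miR-10a* (permutation p = 0.0402, adjusted 0.111) and rho = 0.664 (permutation p = 0.0311, adjusted 0.0932). With *miR-10b* it gave r = 0.593 (permutation p = 0.0553, adjusted 0.111) and rho = 0.509 (permutation p = 0.114). *miR-196a* gave r = 0.379 with *miR-10a* (permutation p = 0.250) and 0.311 with *miR-10b* (permutation p = 0.354), the rho values being 0.345 (permutation p = 0.3003) and 0.382 (permutation p = 0.248). Of the 6 pairs only *miR-10a* with *miR-10b* passed the adjustment. Without CNLX19 the pair of *miR-10a* and *miR-196b* passed as well, with r = 0.73 (permutation p adjusted = 0.0485). Whether the *miR-10* correlation exceeds that of the *miR-196* pair was not tested.

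**Figure D4:**
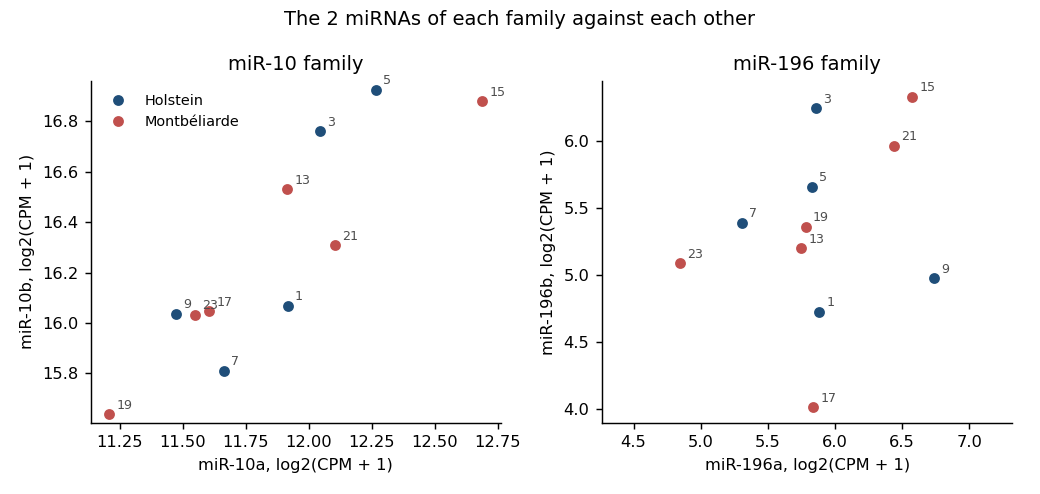
Log2 levels (TMM-scaled CPM + 1) of miR-10b against miR-10a (left) and of miR-196b against miR-196a (right) in the 11 libraries, labelled with their CNLX number. The miR-10 points rise together (r = 0.876), and the miR-196 points scatter (r = 0.266).

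For each of the 4, the 5 most similar of 211 other known miRNAs were ranked by r across the 11 libraries, as a description in which all values share the libraries and their scaling. Closest to *miR-10a* were *miR-342* (r = 0.907), *miR-183* (0.903), *miR-195* (0.889), *miR-10b* (0.876) and *miR-874* (0.857). Closest to *miR-10b* were *miR-10a* (r = 0.876), *miR-183* (0.834), *miR-195* (0.740), *miR-342* (0.714) and *miR-374a* (0.705). The *miR-10* miRNAs shared *miR-342*, *miR-183* and *miR-195* among their nearest, although these come from other gene loci. The median r with all 211 was -0.04 for *miR-10a* and -0.01 for *miR-10b*.

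*miR-196b* was most similar to *miR-199b* (r = 0.802), *miR-127* (0.774), *miR-342* (0.713), *miR-199a-5p* (0.712) and *miR-146a* (0.708). *miR-199a* and *miR-199b* are known from fibroblasts and other mesenchymal cells, *miR-127* from an imprinted cluster and *miR-146a* from immune cells. *miR-196a* had lower similarities, to *miR-181d* (r = 0.688), *miR-181c* (0.636), *miR-411a* (0.614), *miR-154c* (0.569) and *miR-181a* (0.566). The *miR-196* miRNAs had no miRNA in common among their nearest 5. The *miR-181* miRNAs, which make up 3 of the 5 of *miR-196a*, are a family of their own with several gene loci.

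Because the mammary gland holds secretory epithelium, stroma, vessels and blood, the 4 miRNAs were set beside marker lists of these cell types. Of 7 epithelial markers 6 were in the table, and all 6 stromal and smooth muscle markers (*miR-143*, *miR-145*, *miR-199a-5p*, *miR-199a-3p*, *miR-199b* and *miR-214*) were. No listed marker in the table was at 0 in all libraries. Summed epithelial markers were 367535 to 466746 normalized reads in Holstein and 180093 to 469496 in Montbéliarde, with an exact permutation p of 0.197 (0.543 adjusted over 6 lists) on the mean log2 level. Summed stromal markers were 1513729 to 2305715 in Holstein and 1928358 to 3870328 in Montbéliarde, with an exact permutation p of 0.348 (0.543 adjusted). CNLX15 had the highest stromal sum and, at 39422 normalized reads, the highest leukocyte sum, and it was the highest Montbéliarde library for all 4 Hox cluster miRNAs.

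The correlations of the 4 with 6 lists were added after the data had been seen, 24 in all. *miR-196b* followed the mean log2 level of the stromal list with r = 0.737 (permutation p = 0.00857, adjusted 0.103) and rho = 0.900 (permutation p = 0.00042, adjusted 0.0101). Without CNLX15 and CNLX21 its r was 0.686 (permutation p adjusted = 0.814), within Montbéliarde 0.828 (n = 6), and with breed means subtracted 0.807 (permutation p adjusted = 0.0323). The relation of *miR-196b* with stromal markers therefore passed by rank and after subtraction of breed means. It did not pass by Pearson's r over all libraries or over the 9 libraries other than CNLX15 and CNLX21. Values with breed means subtracted were permuted over all 11 libraries and not within breed, so their p-values may be too small. The stromal list holds *miR-199b* and *miR-199a-5p*, named above among the nearest of *miR-196b*.

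*miR-10a* gave r = 0.757 with the stromal list (permutation p = 0.00732, adjusted 0.103) and rho = 0.700 (permutation p = 0.0208). With breed means subtracted r was 0.818 (permutation p adjusted = 0.0323, with the same limit on its permutations). Without CNLX15 and CNLX21 r was 0.380 (permutation p adjusted = 0.973). Within Holstein, which holds neither of those libraries, the r of *miR-10a* with the stromal list was 0.674 (n = 5). With the epithelial list *miR-10a* gave r = -0.674 (permutation p = 0.0263, adjusted 0.158) and rho = -0.500 (permutation p = 0.124). Its r with that list was -0.01 without CNLX15 and CNLX21 and -0.897 within Holstein (n = 5). Among the same 5 cows *miR-10a* gave r = 0.973 with the erythroid list, against -0.219 over all 11 libraries. Correlations within Holstein were not tested. *miR-10b* gave r = 0.537 with the stromal list (permutation p = 0.0826) and *miR-196a* gave r = 0.449 (permutation p = 0.171), both failing the adjustment, with rho of 0.536 (permutation p = 0.0930) and 0.127 (permutation p = 0.716). With the leukocyte list *miR-10a* gave r = 0.672 (permutation p = 0.0241, adjusted 0.158) and rho = 0.655 (permutation p = 0.0337). That r was 0.946 within Montbéliarde, -0.067 within Holstein and 0.206 without CNLX15 and CNLX21. *miR-196b* gave r = -0.641 with the erythroid list (permutation p = 0.0346, adjusted 0.166) and rho = -0.436 (permutation p = 0.182), with r = -0.221 without CNLX17 and CNLX23, the libraries farthest from the median of that list. None of the 24 passed the adjustment by Pearson's r over all 11 libraries. The part of tissue composition in the levels of the 4 miRNAs was not tested further.

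**Figure D5:**
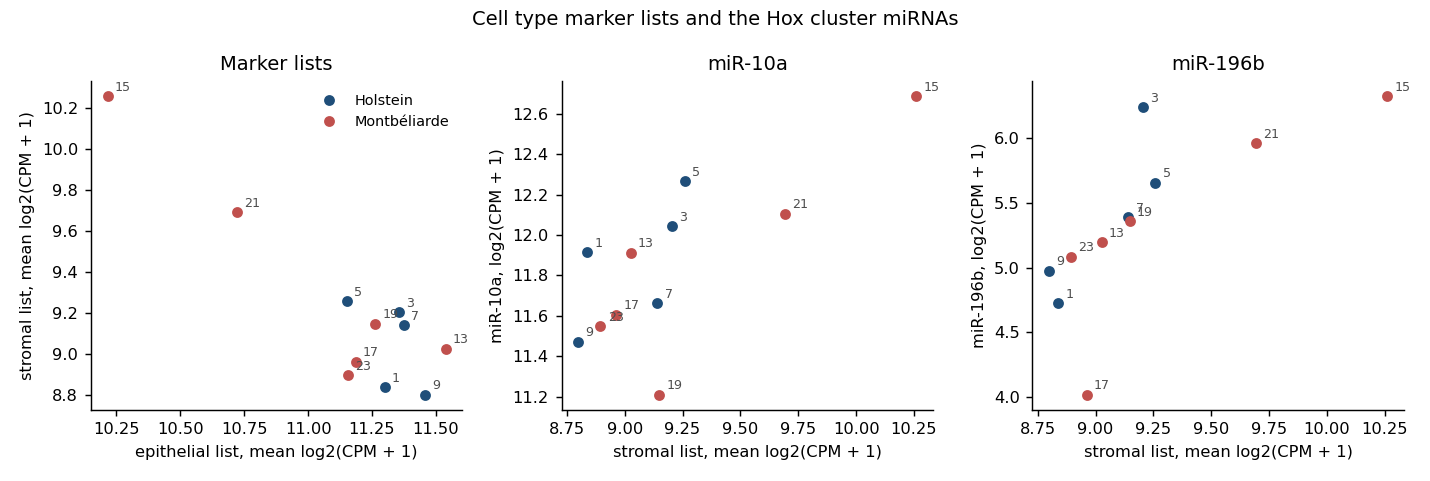
Mean log2 level of the stromal list against the epithelial list (left), and of miR-10a (middle) and miR-196b (right) against the stromal list, in 11 libraries labelled with their CNLX number. CNLX15 and CNLX21 lie apart from the other 9, and the r of miR-196b is 0.737 with them and 0.686 without.

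Relatives of the 4 miRNAs were taken from a fixed list of 7. *miR-99a*, *miR-99b* and *miR-100* resemble the *miR-10* family in their seed region but lie outside the Hox clusters, in clusters that also hold *miR-125a* and *miR-125b*. *miR-615* lies in the HOXC cluster, within the span of *HOXC5*. It was nearly undetected, with 9 reads in all, 1 in Holstein and 8 in Montbéliarde, in 4 of 11 libraries. It fell below the filter of 10 summed reads and was not tested. In the other 7 libraries it had 0 reads, which at their depth allows a share of up to 1.78e-05% to 4.93e-05%, counting error only.

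Of the 6 relatives tested, 0 passed the adjustment in edgeR, while 3 reached 0.05 before adjustment, all 3 higher in Montbéliarde. Over all tested miRNAs 0.364% passed the adjustment, and 7.64% reached 0.05 before it and were higher in Montbéliarde. All 6 log2 differences (Montbéliarde over Holstein) were positive with a median of 0.47, beside 0.03 for all 550 and -0.02 for the 4 Hox cluster miRNAs. Of the 550 tested, 288 had a positive log2 difference. The 6 are not independent, since they include both arms of *miR-99a* and miRNAs that share clusters. The largest log2 differences were those of *miR-100* at 0.99 (SE 0.28, adjusted p = 0.171 in edgeR) and *miR-99b* at 0.82 (SE 0.26, adjusted p = 0.182 in edgeR). For *miR-100* DESeq2 gave an adjusted p of 0.0453, so its call depends on the tool. The remaining 4 relatives had log2 differences of 0.38 to 0.48 with adjusted p-values of 0.335 to 0.405 in edgeR. Without CNLX15 and CNLX21 the log2 differences were 0.57 for *miR-100*, 0.40 for *miR-99b*, 0.23 for *miR-125b* and 0.096 for *miR-99a-5p*. That of *miR-125a* fell less, from 0.384 to 0.294, and that of *miR-99a-3p* hardly moved, from 0.383 to 0.378. Without CNLX15 alone the log2 difference of *miR-99a-5p* was 0.27. The *miR-99* and *miR-100* values were thus above those of *miR-10a* and *miR-10b*, and the difference between the groups of miRNAs was not tested.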

How the data were processed

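The authors extracted total RNA from mammary biopsies, made small RNA libraries with an Illumina TruSeq kit (PCR, no molecular identifiers stated), demultiplexed with bcl2fastq 2.17.1.14, counted reads per bovine miRNA with ncPRO-seq and miRDeep2 on assembly btau5.0.1, and normalized with DESeq2 1.18.1, per the submitters' processing notes and methods. The deposited table holds raw read counts per library and normalized reads (a signal: count over size factor). Its columns of the authors' breed means, log2 fold changes and p-values were not used.

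Raw counts with at least 10 reads summed over 11 libraries entered edgeR 4.0.16 (TMM, robust quasi-likelihood, breed as the only term). DESeq2 1.42.0 and limma 3.58.1 were alternatives, and scripts were tested on simulated data. Exact permutation tests used all 462 splits, and correlations 100000 permutations on log2(CPM + 1). Ratios used raw counts, with a pseudocount of 0.5 on the log2 scale. Depth ran from 6087865 to 16808976 reads per library. Recomputed size factors matched the deposited normalized reads.

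The text names the 4 miRNAs, a fixed list of relatives, and for each of the 4 the 5 most similar known miRNAs with a mean of at least 100 reads. These members and lists were chosen with earlier results of these data known. Marker correlations and the removal of CNLX15 with CNLX21 were added after the data were seen.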

Additional observations from a re-analysis of the deposited data

Results flagged for a closer look

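Among 38 sets of values within a breed checked for a single library far from the rest, 2 were found, and chance alone gives about 1 in 20. *miR-615* had 0.660 normalized reads in CNLX7, which is a single raw read, and 0 in the other 4 Holstein libraries. The summed skeletal muscle markers (*miR-1*, *miR-133a* and *miR-133b*) reached 1805 normalized reads in the Holstein library CNLX3, against a Holstein median of 627. None of the 4 Hox cluster miRNAs had such a library in either breed.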

How the results depend on the processing

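No alternative among 21 moved any of the 4 Hox cluster miRNAs past the adjusted p of 0.05. Their log2 differences lie so near 0 that signs turned, and the cause was not tested. *miR-10a* was -0.030 with limma-voom, -0.29 with the epithelial level as a covariate and -0.22 without CNLX15 and CNLX21. With the epithelial covariate *miR-10b* was -0.28, *miR-196a* -0.31 and *miR-196b* -0.45. All 4 were thus below 0 there, as without CNLX15 and CNLX21, and their smallest adjusted p in edgeR was 0.571. With the library total as a covariate *miR-10b* was 0.0037 and *miR-196b* 0.24. With 1 library left out, log2 differences ran from -0.11 to 0.19 for *miR-10a*, -0.21 to 0.11 for *miR-10b*, -0.16 to 0.24 for *miR-196a* and -0.19 to 0.33 for *miR-196b*. Over the same sets the log2 ratio between breeds ran from -0.13 to 0.014 for the *miR-10* pair and -0.34 to 0.24 for the *miR-196* pair, and the number of correlated pairs from 1 to 2. Without CNLX15 and CNLX21 r was -0.086 for *miR-196a* with *miR-196b*, and with the epithelial list 0.022 for *miR-10b*, 0.43 for *miR-196a* and 0.18 for *miR-196b*, and -0.22 for *miR-196a* with the stromal list. No paired analysis was possible because the breeds share no replicate numbers that tie cows together. Over all tested miRNAs edgeR called 2 and DESeq2 21. Without *miR-143*, shares of all reads were 10.8% for *miR-10b* and 0.505% for *miR-10a*. Raw counts of 106 to 941 limit the *miR-196* values more than those of *miR-10*.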

Other observations

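The lowest correlations of *miR-10a* among 211 miRNAs, picked after their values were seen and given as a description, were those with *miR-375* (r = -0.915), known from secretory epithelium, and with the *miR-200* miRNAs *miR-200b* (r = -0.839) and *miR-200a* (r = -0.777). *miR-375* was also the lowest for *miR-10b* (r = -0.687). The whole epithelial list gave r = -0.674 with *miR-10a*, -0.01 without CNLX15 and CNLX21, and -0.897 within Holstein (n = 5, not tested). These values share libraries and scaling, and *miR-10b* alone takes 8.18% of the reads.

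*miR-99a-5p*, a relative outside the Hox clusters, gave r = 0.821 with *miR-10a*, rank 8 of 211, and r = 0.634 with *miR-10b*, rank 13. Its level was 0.146% of reads.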
